A study of Mus musculus with 36 samples.

Results

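The 10 genes followed here mark subfields of the mouse hippocampus: the dentate gyrus genes Prox1, Dsp, C1ql2, Calb1 and Tdo2, and the cornu ammonis (CA) genes Wfs1, Fibcd1, Mpped1, Bok and Amigo2. They were taken by gene symbol, 10 of the 36172 gene rows in the table. All 10 passed the filter on low counts in every fit. The 36 libraries came from hippocampus of Cx3cr1-NuTRAP mice, in which a tamoxifen-induced cre under the Cx3cr1 gene, active in microglia and related macrophages, switches on a GFP tag on ribosomes. Young inputs were whole-tissue polyA RNA of mice aged 6 months with early induction (n = 10, 5 females and 5 males). Old early inputs were the same material from mice aged 22 months with early induction (n = 12, 7 females and 5 males). Old late inputs were from mice aged 22 months with late induction (n = 7, 5 females and 2 males), and the same 7 animals gave the TRAP libraries, in which GFP-tagged ribosomes and their RNA were pulled down with an antibody. All groups carried the transgenes and were induced, so no group here lacked cre or the tag. Both hippocampi of an animal were combined in 1 homogenate.

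The hippocampus is wired as a chain in which dentate granule cells send mossy fibres to CA3 pyramidal cells, which in turn project to CA1. Granule and pyramidal cells are both glutamatergic but differ in transcription factors, calcium buffers, secreted synaptic proteins and adhesion molecules, so genes of each subfield can be read from whole-tissue RNA. In such bulk samples fewer cells of a type and less RNA per cell cannot be told apart. TRAP of the Cx3cr1 lineage is meant to hold microglial RNA, and a neuronal gene in the pulldown is read here only as a level relative to the input.

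Prox1 encodes the homeodomain factor that sets granule cell identity. Dsp encodes desmoplakin, which links desmosomes to intermediate filaments. C1ql2 encodes a secreted C1q-like protein of mossy fibre synapses, Calb1 the calcium buffer calbindin, and Tdo2 the enzyme that opens the kynurenine pathway of tryptophan. Among the CA genes, Wfs1 encodes the endoplasmic reticulum protein wolframin and Fibcd1 a chitin-binding membrane receptor, both known from CA1. Mpped1 encodes a metallophosphoesterase-domain protein, Bok a member of the BCL2 family, and Amigo2 a leucine-rich-repeat adhesion molecule known from CA2 and neighbouring CA3. Calb1 is also made by interneurons and by a part of CA1 pyramidal cells. On mm10, as the deposited table places them, the dentate genes were Prox1 at chr1:190121777-190170680 (minus strand), Dsp at chr13:38151294-38198577 (plus strand), C1ql2 at chr1:120340582-120343174 (plus strand), Calb1 at chr4:15881264-15906709 (plus strand) and Tdo2 at chr3:81958414-81975728 (minus strand). The CA genes were Wfs1 at chr5:36966104-36988982 (minus strand), Fibcd1 at chr2:31813290-31846005 (minus strand), Mpped1 at chr15:83780023-83858474 (plus strand), Bok at chr1:93685694-93695762 (plus strand) and Amigo2 at chr15:97244074-97247287 (minus strand). Values are per whole gene.

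Promoters of Dsp and C1ql2 are shown because these genes share a cell type and differed most in their response to age. Each is the 250 bases before the RefSeq start on GRCm38.p6. The Dsp window is chr13:38151044-38151293 on the plus strand, and the C1ql2 window is chr1:120340332-120340581 on the plus strand. Capitals mark the letters CANNTG, which is its own reverse complement and is the E-box core bound by basic helix-loop-helix factors such as Neurod1.
Dsp: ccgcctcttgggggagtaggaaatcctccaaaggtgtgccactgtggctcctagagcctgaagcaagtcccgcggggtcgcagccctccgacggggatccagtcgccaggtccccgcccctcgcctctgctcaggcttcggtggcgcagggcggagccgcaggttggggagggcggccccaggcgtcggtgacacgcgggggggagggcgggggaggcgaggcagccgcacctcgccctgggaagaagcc
C1ql2: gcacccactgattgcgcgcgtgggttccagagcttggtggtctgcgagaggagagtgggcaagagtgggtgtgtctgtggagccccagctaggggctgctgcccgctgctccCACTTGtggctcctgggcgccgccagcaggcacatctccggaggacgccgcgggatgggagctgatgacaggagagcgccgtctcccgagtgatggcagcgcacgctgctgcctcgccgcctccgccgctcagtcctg
The C1ql2 window held 1 match to CANNTG and the Dsp window held 0, while 66.2% of 32851 promoters of this length held at least 1. The cAMP response element TGACGTCA, which reads the same on both strands, was in none of the member promoters listed and in 1.55% of all. A match is only a description of the letters in these windows.

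The inputs held 12.897 to 18.366 M (mega) estimated counts a library and the pulldowns 12.999 to 20.449 M. Values below are CPM, counts scaled to a library total of 1 M, after TMM scaling. Known markers placed the tissue: the summed CPM of 6 excitatory neuron genes was 6387.7 to 7352.4 in young inputs, 5489.5 to 7215.3 in old early, 5660 to 6600.8 in old late and 5077.8 to 6121.5 in TRAP (Map2 was listed at 0 throughout). The summed CPM of 6 microglial genes was 427.6 to 593.8 in old late inputs and 7630.9 to 11648.9 in TRAP, so the pulldown was enriched for its target and still held neuronal RNA. Library numbers in the labels ran in blocks by group (1 to 23 old early, 25 to 38 old late input and TRAP, 39 to 57 young). The labels do not say what the numbers stand for, and anything that follows them cannot be told apart from group. The labels give 29 animal numbers for the 29 inputs, so p-values among inputs measure the spread between animals. The main fit of TRAP against input treated the TRAP and input library of an animal as independent. A fit with the animal as a block was an alternative.

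Per kilobase of exon, the dentate gene C1ql2 had the highest level of the 10 in young inputs, 68.7 ± 4.56 CPM per kb (SD, n = 10), next to the CA gene Mpped1 at 62.9 ± 3.69. Fibcd1 (46.7 ± 2.49), Wfs1 (46.4 ± 5.61) and Bok (40.6 ± 2.60) followed, and the first of these did not differ from the second beyond their spread. Calb1 stood at 25.7 ± 1.68 and Amigo2 at 11.3 ± 0.91 CPM per kb. The lowest were Dsp at 6.78 ± 0.68, Prox1 at 4.85 ± 0.44 and Tdo2 at 1.51 ± 0.26 CPM per kb. In TRAP Dsp stood above Amigo2, at 10.2 ± 3.15 against 5.16 ± 0.52 CPM per kb (n = 7).

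**Figure D1:**
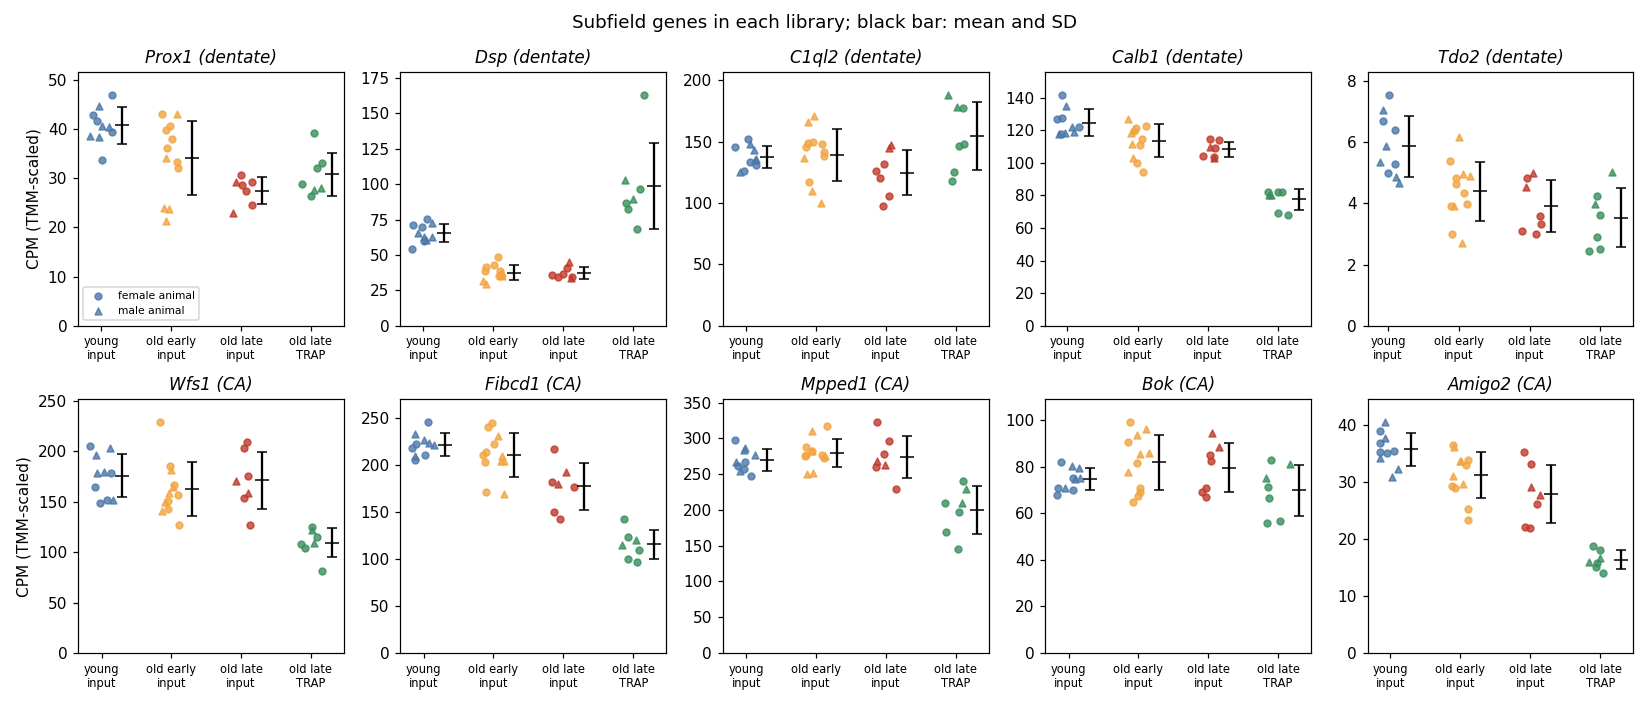
TMM-scaled CPM of each of the 10 genes in every library (circles, female animals; triangles, male animals), with the mean and SD of each group in black: young, old early and old late inputs and old late TRAP. Dsp in old inputs sits below every young library and in TRAP above every old late input, and Prox1 in old late inputs lies below the young range.

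The age comparison asked how old inputs differ from young ones, with either induction age. The dentate genes were mostly lower in old animals: 4 of 5 fell in old early inputs and 4 of 5 in old late inputs, against 0 of 5 and 2 of 5 CA genes, and no member rose. Over the 14948 genes tested, 12.6% fell in old early against young and 25.6% were called in either direction (edgeR adjusted p under 0.05). In old late against young 17.5% fell and 34.5% were called. Both comparisons share the 10 young libraries, so their values are given side by side. The median log2 change of the dentate genes was -0.27 and -0.56, that of the CA genes -0.07 and -0.02, and that of all genes 0.01 and 0.01.

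Dsp changed most. Its level was 54.34 to 75.22 CPM in young inputs (median 64.18), 29.53 to 48.55 in old early (median 36.64) and 33.75 to 45.22 in old late (median 35.81). Every one of the 12 old early and 7 old late inputs was below the lowest young library, a separation shared by 1.01% of 14010 genes in old early and 4.86% in old late. The log2 change was -0.80 ± 0.07 (SE; edgeR adjusted p = 9.64e-10) in old early and -0.82 ± 0.08 (edgeR adjusted p = 6.54e-09) in old late.

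Prox1 was also lower in both. Young inputs ran from 33.61 to 46.91 CPM (median 40.56), old early from 21.27 to 43.11 (median 35.09) and old late from 22.83 to 30.66 (median 28.57). All 7 old late inputs were below the young range, while 5 of 12 old early inputs were. The log2 change was -0.59 ± 0.11 (edgeR adjusted p = 8.98e-05) in old late and -0.27 ± 0.09 (edgeR adjusted p = 0.0276) in old early.

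The old early call for Prox1 was lost in females alone (-0.12, edgeR adjusted p = 0.424), without sex as a covariate (-0.24, 0.0567), and without young replicate 3 (-0.24, 0.0548) or old early replicate 1 (-0.23, 0.0548). It was also lost without old early replicates 2 and 5 together, an alternative added after seeing the data (-0.18, edgeR adjusted p = 0.103). Over 40 alternatives its edgeR, DESeq2 or limma voom adjusted p ranged from 0.00453 to 0.916.

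Calb1 had the smallest change of the 4 dentate genes that fell. It was 117.38 to 141.57 CPM in young inputs (median 121.82), 94.35 to 126.72 in old early (median 116.25) and 102.74 to 114.32 in old late (median 109.06). All 7 old late inputs were below the young range, and the old early range overlapped it. The log2 change was -0.19 ± 0.05 (edgeR adjusted p = 0.00513) in old late. In old early it was -0.12 ± 0.04 (edgeR adjusted p = 0.038), a call that was lost in 8 of 40 alternatives (adjusted p 0.0119 to 0.0886 over all 40). These were upper quartile scaling, females only, and the fits without young replicate 7, 9 or 10 or without old early replicate 4, 7 or 10, with log2 changes of -0.18 to -0.10.

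Tdo2 had the lowest level of the 10, so each library carried few counts of it, while its change lay between those of Dsp and Prox1 in old early and just after Prox1 in old late. Its CPM was 4.68 to 7.55 in young inputs (median 5.62), 2.71 to 6.17 in old early (median 4.5) and 3.01 to 5.00 in old late (median 3.59). The groups overlapped in both comparisons. It fell by 0.40 ± 0.12 on the log2 scale in old early (edgeR adjusted p = 0.0172) and by 0.56 ± 0.15 in old late (edgeR adjusted p = 0.00381).

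C1ql2 was the dentate gene with no call. Its CPM was 125.45 to 151.79 in young inputs (median 135.31), 99.76 to 171.01 in old early (median 143.49) and 97.93 to 147.07 in old late (median 125.68). The ranges overlapped widely. Its log2 change was 0.03 ± 0.08 (edgeR adjusted p = 0.781) in old early and -0.12 ± 0.09 (edgeR adjusted p = 0.314) in old late. In females alone it was called in old late (-0.23, edgeR adjusted p = 0.0432, range over 40 alternatives 0.0432 to 0.508).

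**Figure D2:**
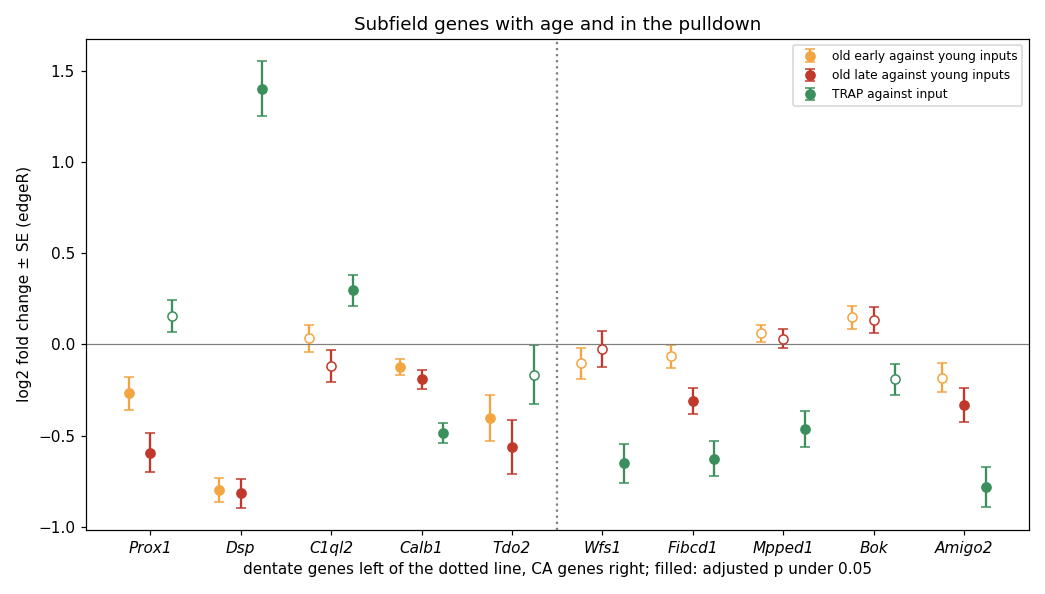
Log2 fold change with its SE for the 10 genes in each comparison (edgeR; filled symbols passed an adjusted p of 0.05, open symbols did not). Dsp lies at -0.80 and -0.82 in the age comparisons and at 1.40 in TRAP against input, and the CA genes lie at or below -0.19 in TRAP.

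Among the CA genes, Fibcd1 and Amigo2 fell in old late inputs and none was called in old early. Fibcd1 was 205.54 to 245.69 CPM in young inputs (median 222.09), 169.14 to 244.31 in old early (median 210.26) and 142.29 to 216.70 in old late (median 179.75). In old late, 6 of 7 libraries were below the young range. The log2 change was -0.31 ± 0.07 (edgeR adjusted p = 0.00137) in old late and -0.07 ± 0.06 (edgeR adjusted p = 0.453) in old early.

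Amigo2 was 30.87 to 40.42 CPM in young inputs (median 35.27), 23.34 to 36.50 in old early (median 31.95) and 21.96 to 35.17 in old late (median 27.62). All the ranges overlapped. Its log2 change was -0.33 ± 0.09 (edgeR adjusted p = 0.0058) in old late and -0.18 ± 0.08 (edgeR adjusted p = 0.0854) in old early. The latter was called in the fit of only the groups compared (-0.19, 0.0445) and without old early replicate 12 (-0.21, 0.0431), within a range of adjusted p of 0.0262 to 0.181 over 40 alternatives. Its 181 bases of overlap with Pced1b on the opposite strand cannot be separated without strand, and Pced1b was at 4.09 to 7.71 CPM.

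Wfs1, Mpped1 and Bok passed in neither age comparison. Wfs1 was 148.35 to 205.29 CPM in young inputs (median 177.84), 126.82 to 228.55 in old early (median 157.51) and 126.94 to 208.75 in old late (median 169.92). Mpped1 was 247.19 to 297.05 in young inputs (median 267.35), 250.47 to 317.51 in old early (median 276.78) and 229.88 to 322.62 in old late (median 268.18). Bok was 68.08 to 81.99 in young inputs (median 74.97), 64.67 to 99.13 in old early (median 83.51) and 66.83 to 94.29 in old late (median 82.60). For all 3 genes the old ranges overlapped the young range. The edgeR adjusted p-values were 0.401, 0.345 and 0.0769 in old early and 0.875, 0.687 and 0.151 in old late. Without young replicate 7, Bok was called in old early (0.18, edgeR adjusted p = 0.0402, range over 40 alternatives 0.0402 to 0.642).

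Averaged over each set of 5 genes in a library, the dentate minus CA difference of log2 CPM was -1.34 ± 0.10 in young inputs (SD, n = 10), -1.62 ± 0.14 in old early (n = 12) and -1.67 ± 0.09 in old late (n = 7). Old libraries lay at -1.48 or below in old early and at -1.54 or below in old late, and young libraries at -1.474 or above. The nearest old early and young libraries thus almost met, and no share over other gene sets was computed. The mean log2 CPM of the CA genes was 6.94, 6.89 and 6.81 in the same order, and that of the dentate genes 5.60, 5.27 and 5.14. The size rests on how the genes are combined. Old early minus young was -0.28 by the mean, -0.62 by the median of the 5 genes, -0.16 without Dsp and -0.14 without Prox1 and Dsp. Old late minus young was -0.33 by the mean, -0.63 by the median and -0.18 without Prox1 and Dsp. The median takes the middle gene of each library. On the dentate side that was Dsp in young and old late inputs, and Dsp or Prox1 in old early. It therefore follows mainly Dsp and not the set.

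**Figure D3:**
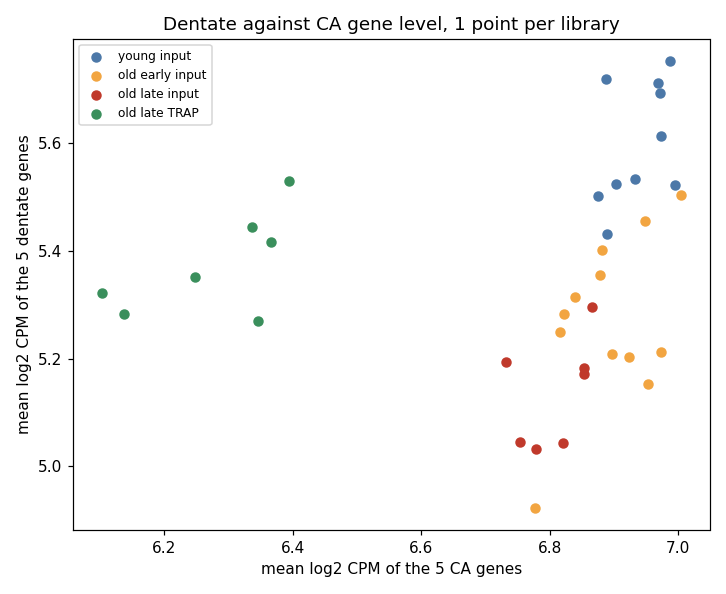
Mean log2 CPM of the 5 dentate genes (vertical axis) against that of the 5 CA genes (horizontal axis), 1 point per library, coloured by group. Old inputs lie lower than young ones on average (dentate means 5.27 and 5.14 against 5.60), and only the old early range overlaps the young range. TRAP libraries lie to the left of all inputs (CA mean 6.28).

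Other granule cell genes were also lower with age. Of 9 companion genes of dentate granule cells, 4 fell in old early and 6 in old late inputs and none rose, with medians of -0.30 and -0.42. Pdzd2, a multi-PDZ protein, fell by 0.44 ± 0.08 in old early (edgeR adjusted p = 0.000123). Of 5 CA1 genes 1 rose in each comparison and none fell, with Nov, a secreted matricellular protein, rising by 0.23 in old early. No CA2 gene of 6 was called in old early and 1 fell in old late (Rgs14, a scaffold for G proteins, at -0.16). Of 5 CA3 genes 2 fell in each, with Iyd falling by 0.48 in old early and the adhesion gene Nectin3 by 0.39 in old late. Immature granule neuron genes fell in 3 of 5 in old early (Sox11, a transcription factor, at -0.32) and in 1 of 5 in old late (Neurod1, a bHLH factor, at -0.40). Excitatory neuron genes fell in 2 of 5 and 4 of 5 tested, led by Neurod2, another such factor (-0.16 and -0.27).

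Markers of other cells moved with age in the same libraries. All 6 microglial genes and all 5 oligodendrocyte genes rose in both comparisons, and 2 of 5 astrocyte genes did, led by Gfap (0.84 and 1.03). Summed microglial CPM was 314.8 to 364.8 in young inputs, 399.1 to 485.3 in old early and 427.6 to 593.8 in old late. Summed oligodendrocyte CPM was 2681.1 to 4155.3, 3447.3 to 5035.7 and 3643.5 to 6133.8. Choroid plexus genes varied widely within groups (44.7 to 4047.9 over the inputs) and 0 of 5 were called. Of neighbouring regions, 0 of 4 subiculum and 0 of 5 thalamus genes were called, and 1 of 5 striatum genes fell in each comparison. Of 4 cortex genes 0 were called in old early, and 1 rose and 1 fell in old late. Summed thalamus CPM was 42.7 to 101.7 in young inputs, 33.3 to 215.1 in old early and 33.1 to 82.7 in old late. The part of other cells and regions in the members' differences was not tested.

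A second measure that moved with age was the level of long transcripts. Prox1 and Dsp, at 8390 and 9659 bases of exon, were the only members of 8000 bases or more (GENCODE M21). Of 2466 such genes, 30.2% fell in old early inputs against 8.84% of 11532 shorter genes, and in old late 40.7% against 12.7%. For each library the mean log2 CPM of long genes minus that of other genes was taken. Prox1 and Dsp were left out of the long genes, while the shorter members stayed among the other genes. This level was 1.20 ± 0.04 in young inputs, 1.08 ± 0.11 in old early and 1.03 ± 0.07 in old late. The lowest old early libraries were replicate 5, at 0.82, and replicate 2, at 0.942.

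Between animals of the same group, Prox1, Mpped1 and Dsp moved with this level. The share of all genes that did so was not computed, so this is not shown to be particular to them. Over 29 inputs centred on their group means, Pearson r for Prox1 was 0.80 (permutation p = 3e-05, adjusted over 10 genes 0.0003) and Spearman rho 0.68 (permutation p = 0.00035, adjusted 0.002). Without the 2 libraries farthest from the median it was 0.63, and within young, old early and old late inputs 0.49, 0.85 and 0.72. Dsp gave r = 0.59 (permutation p = 0.0024, adjusted 0.008; rho 0.55, permutation p = 0.00247, adjusted 0.00823), 0.44 without the 2 farthest, and 0.45, 0.72 and 0.32 within the groups. The shorter gene Mpped1 gave r = 0.63 (permutation p = 0.00024, adjusted 0.0012; rho 0.62, permutation p = 0.0004, adjusted 0.002), 0.57 without the 2 farthest, and 0.45, 0.66 and 0.88 within the groups. For Wfs1, also shorter, rho passed (0.50, permutation p = 0.0077, adjusted 0.0192) and r did not (0.43, permutation p = 0.0335, adjusted 0.0838; 0.46 without the 2 farthest), with r of 0.62, 0.27 and 0.80 within the groups.

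With the long-gene level as a covariate, chosen after the data were seen, Prox1 was no longer called: -0.02 (edgeR adjusted p = 0.916) in old early and -0.19 (edgeR adjusted p = 0.214) in old late. The values of Dsp were -0.67 (edgeR adjusted p = 1.65e-07) and -0.62 (edgeR adjusted p = 3.31e-05), so its call held. Tdo2 lost its call in both (-0.35, 0.123, and -0.47, 0.119), while Calb1 kept it (-0.16, 0.0371, and -0.25, 0.0146). Mpped1 became a call in both (0.16, 0.0134, and 0.18, 0.0319), and Amigo2 in old early (-0.29, 0.0262). The covariate is itself different between the ages. Of the granule companions that fell, 3 of 4 in old early and 3 of 6 in old late were long.

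**Figure D4:**
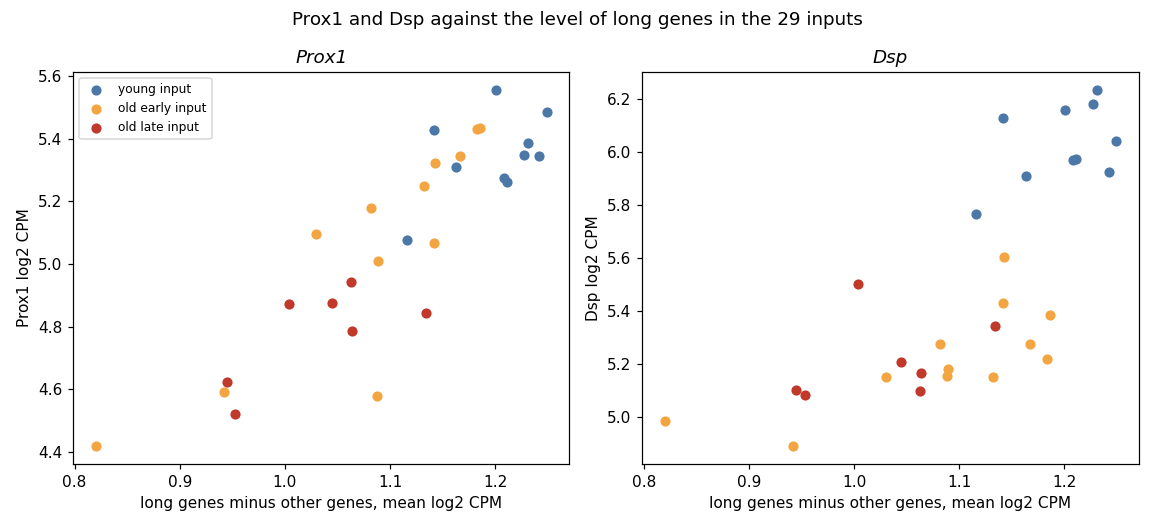
Level of Prox1 and Dsp (log2 CPM) in each input library against the mean log2 CPM of long genes minus that of other genes, with points by group. Old early replicates 2 and 5 lie at the left, at 0.942 and 0.82, and young inputs at 1.12 to 1.25.

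Whether induction age changed the members was read from old late against old early inputs. None of the 10 was called by edgeR, DESeq2 or limma voom. Over all 14948 genes edgeR called 0.0334% and DESeq2 called 58 genes. An unadjusted edgeR p under 0.05 was found for 1736 of the 14948 genes and for 2 of the 10 members. The 2 members were Prox1 at -0.32 ± 0.10 (edgeR adjusted p = 0.203) and Fibcd1 at -0.24 ± 0.07 (edgeR adjusted p = 0.181). Prox1 was called in females alone (-0.41, edgeR adjusted p = 0.0188) and without old early replicate 5 (-0.36, edgeR adjusted p = 0.0489). Without old early replicates 2 and 5 both genes were called: -0.40 (edgeR adjusted p = 0.00574) for Prox1 and -0.27 (edgeR adjusted p = 0.013) for Fibcd1. Over 40 alternatives the adjusted p ranged from 0.00574 to 0.423 for Prox1 and from 0.013 to 0.348 for Fibcd1.

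Sex was compared over all 29 inputs, and edgeR called no member (0.174% of all genes were). DESeq2 and limma voom called 0 members. An unadjusted edgeR p under 0.05 was found for 1632 of 14948 genes and for 2 of the 10 members. Bok differed by 0.16 ± 0.06 (males minus females; edgeR adjusted p = 0.315) and Prox1 by -0.18 ± 0.08 (edgeR adjusted p = 0.438). Prox1 in old early inputs was 32.13 to 43.11 CPM in 7 females and 21.27 to 43 in 5 males, and the ranges overlapped. An interaction of age with sex in the 22 early-induced inputs was called for no member and for 0% of genes (edgeR); 0 of 10 members had an unadjusted p under 0.05, and over all genes 2301 did, with 13 DESeq2 calls.

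The TRAP comparison asked what the pulldown held of these genes relative to the input of the same animals. CA genes were mostly lower in the pulldown, and the dentate genes did not share 1 direction. Of the dentate genes 2 of 5 were higher (Dsp and C1ql2) and 1 lower (Calb1), and of the CA genes 4 of 5 were lower and none higher. Of all 14596 genes tested, 30.4% were higher and 28.8% lower, 59.2% in all. The 2 of 5 dentate genes that were higher are thus near the share of all genes. The median log2 change was 0.16 for the dentate genes, -0.63 for the CA genes and -0.02 for all genes. All fold changes are relative to the pulldown's own total. The median of all genes became -0.17 with upper quartile scaling and -0.13 with library size alone, where calls were 3280 higher and 6372 lower, and 3564 higher and 5748 lower, against 4442 and 4198.

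Dsp was the member that rose most. It was 33.75 to 45.22 CPM in old late inputs (median 35.81) and 68.33 to 163.08 in TRAP (median 89.48). All 7 TRAP libraries were above all inputs, as for 19.1% of genes, and the ratio within an animal ran from 2.00 to 4.03 (median 2.42). The log2 change was 1.40 ± 0.15 (edgeR adjusted p = 5.17e-07). Replicate 7 was the highest at 163.08, and Dsp stayed called in each fit that left out 1 library.

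C1ql2 was 97.93 to 147.07 CPM in input (median 125.68) and 117.82 to 187.93 in TRAP (median 147.98). The groups overlapped, but the ratio within an animal was above 1 in 7 of 7, from 1.04 to 1.68. Its log2 change of 0.30 ± 0.09 (edgeR adjusted p = 0.00671) was 0.15 (0.137) under upper quartile scaling and 0.19 (0.064) with library size alone, where it was not called. Prox1, at 22.83 to 30.66 CPM in input (median 28.57) and 26.46 to 39.19 in TRAP (median 28.87), had a log2 change of 0.16 ± 0.09 (edgeR adjusted p = 0.134) and a ratio above 1 in 5 of 7 animals. With the long-gene level as a covariate it was called (0.21, edgeR adjusted p = 0.045, range over 24 alternatives 0.045 to 0.919). Tdo2 was 3.01 to 5.00 in input (median 3.59) and 2.43 to 5.04 in TRAP (median 3.61), with a log2 change of -0.17 ± 0.16 (edgeR adjusted p = 0.391). Its ratio within an animal was below 1 in 5 of 7.

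Calb1 was the only dentate gene called lower. It was 102.74 to 114.32 CPM in input (median 109.06) and 67.80 to 82.32 in TRAP (median 80.44), with no overlap and a ratio from 0.632 to 0.795. The log2 change was -0.49 ± 0.06 (edgeR adjusted p = 1.18e-06).

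The CA genes fell, except Bok. Wfs1 was 126.94 to 208.75 CPM in input (median 169.92) and 81.59 to 125.22 in TRAP (median 108.60), with all 7 pulldowns below all inputs. Its log2 change was -0.65 ± 0.11 (edgeR adjusted p = 5.87e-05). Fibcd1 was 142.29 to 216.70 in input (median 179.75) and 96.93 to 142.47 in TRAP (median 115.27), with 6 of 7 pulldowns below the inputs and a log2 change of -0.63 ± 0.10 (edgeR adjusted p = 2.66e-05). Amigo2 was 21.96 to 35.17 in input (median 27.62) and 14.03 to 18.75 in TRAP (median 15.87), all 7 below, at -0.78 ± 0.11 (edgeR adjusted p = 1.27e-05). Such a separation downward held for 10.9% of genes.

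Mpped1 was 229.88 to 322.62 CPM in input (median 268.18) and 145.84 to 240.29 in TRAP (median 209.61). In 6 of 7 the pulldown was below every input, and the log2 change was -0.46 ± 0.10 (edgeR adjusted p = 0.000745). Bok was 66.83 to 94.29 in input (median 82.60) and 55.70 to 82.84 in TRAP (median 71.38), and the groups overlapped. Its log2 change was -0.19 ± 0.09 (edgeR adjusted p = 0.0666), and with the animal as a block -0.20 (edgeR adjusted p = 0.0359), a call. It was also called with DESeq2, upper quartile scaling, library size alone, and without TRAP replicate 6 or input replicate 7. Over 24 alternatives the adjusted p of Bok ranged from 0.00355 to 0.218.

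**Figure D5:**
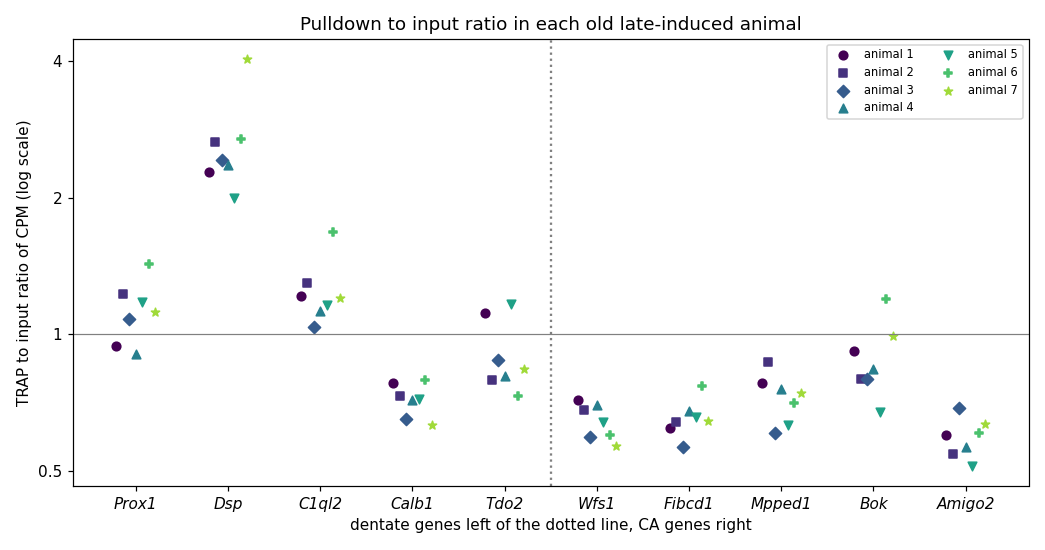
Ratio of TRAP CPM to input CPM for each of the 7 animals (points; log axis) and each of the 10 genes. All 7 animals lie above 1 for Dsp and C1ql2, and all lie below 1 for Calb1, Wfs1, Fibcd1, Mpped1 and Amigo2.

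The dentate minus CA difference was -0.90 ± 0.09 in TRAP against -1.67 ± 0.09 in the inputs (SD, n = 7), higher by 0.77 ± 0.10 within an animal and in 7 of 7. The rise was 0.49 without Dsp and 0.42 without Prox1 and Dsp. By the median of the 5 genes in each library it was 1.60. On the dentate side the middle gene was Dsp in the inputs and Calb1 in most pulldowns, so 1.60 compares different genes. Companion genes of granule cells showed 3 of 9 higher, a share near the 30.4% of all genes, and none lower, against 28.8% of all genes. The largest rise was that of Dock10, a guanine nucleotide exchange factor (0.77 ± 0.07, edgeR adjusted p = 1e-07). Dock10 stood at 51.5 ± 2.88 CPM in input and 88.6 ± 11.5 in TRAP. CA1 genes were lower in 4 of 5 (Nov, -1.02 ± 0.07) and higher in 1 (Man1a, a Golgi mannosidase, 0.67), all 5 CA2 genes tested were lower (Map3k15, -0.96), and 2 of 5 CA3 genes were lower (Coch, -1.41), where 28.8% of all genes were. Of 5 immature granule neuron genes 3 were lower (Igfbpl1, -1.59), as were 2 of 4 hilar mossy cell genes (Drd2, a dopamine receptor, -0.71). The hilar gene Csf2rb2, which encodes a cytokine receptor chain, was higher by 3.46 ± 0.18, and myeloid cells are also known to express it.

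In the same libraries all 6 microglial genes were higher (median 4.19) and all 4 endothelial genes were higher, with summed CPM of 118.6 to 208.5 against 52.7 to 80.1. Oligodendrocyte genes were lower in 5 of 5 and choroid plexus genes in 4 of 5. Dsp is also known from meningeal and epithelial cells, so genes of those were looked up after its values were seen. Medians of 6 of 7 barrier genes were lower in TRAP, with values of 0.48 against 1.48 CPM for Cdh1, 2.51 against 8.48 for Krt18 and 0.5 against 1.85 for Crabp2, while the other one, Angptl7, stood at 7.2 against 0.12. The desmosome partners did not share 1 direction. Median CPM in young, old early and old late inputs and in TRAP was 36.47, 43.34, 50.71 and 64.64 for Jup, and 47.33, 35.43, 28.98 and 24.83 for Pkp2. In old late inputs and TRAP it was 4.13 and 3.41 for Dsg2, 8.48 and 2.96 for Perp, and 0.39 and 0.47 for Dsc2. What part any of these cells had in the Dsp difference was not tested.

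Between animals of the same group, members varied together or apart. Of 45 pairs over the 29 inputs centred on group means, 4 had a positive and 3 a negative Pearson r at an adjusted permutation p under 0.05. The share of such pairs over all genes was not computed, so the count is not a trait of the members. Prox1, Dsp and Mpped1, and Wfs1 by rho, also moved with the long-gene level. Its part in these pairs was not tested. The CA genes Wfs1 and Mpped1 moved together (r = 0.71, permutation p = 8e-05, adjusted 0.0036; rho 0.73, permutation p = 3e-05), 0.78 without the 2 farthest libraries and 0.88, 0.40 and 0.96 within young, old early and old late inputs. Prox1 and Dsp did so as well (r = 0.64, permutation p = 0.00053, adjusted 0.00795; rho 0.62), with 0.63 without the 2 farthest and 0.75, 0.69 and 0.47 within groups. Amigo2 went against both Wfs1 (r = -0.67, adjusted permutation p = 0.00795; rho -0.57) and Mpped1 (r = -0.62, adjusted permutation p = 0.0169; rho -0.61), at -0.50 and -0.47 without the 2 farthest. Wfs1 also went against Fibcd1 by r (-0.55, adjusted permutation p = 0.0362) but not by rho (-0.35, adjusted permutation p = 0.233). Without the 2 farthest r was -0.34. C1ql2 went with the CA gene Fibcd1 (r = 0.63, adjusted permutation p = 0.0194; 0.47 without the 2 farthest) and with Tdo2 (r = 0.59, adjusted permutation p = 0.0194; 0.42).

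The genes most like each member over the same 29 inputs were named by Pearson r among 12954 genes, as a description. Prox1 was most like Strn (0.90), Dsp like Nrg3 (0.79), C1ql2 like Bhlhe22 (0.79), Calb1 like Klhdc4 (0.74) and Tdo2 like Rae1 (0.79). Wfs1 was most like Gsg1l (0.88), Fibcd1 like Kcng2 (0.87), Mpped1 like Mras (0.87), Bok like BC030500 (0.76) and Amigo2 like Fam26e (0.75). Libraries share depth and the long-gene level, and these values carry no test.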

How the data were processed

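Each library was polyA RNA-seq of mouse hippocampus. The authors deposited estimated counts per gene, marked raw per the file headers; 77.4% of nonzero values were not whole. The build mm10 and DESeq2 are named in the submitters' processing notes; aligner, counting tool and strand are not given in the sources used here. Values were rounded, filtered with filterByExpr (minimum count 10), TMM-scaled and fitted with edgeR 4.0.16 quasi-likelihood (R 4.3.3), with Benjamini-Hochberg adjustment over all genes; SE is the log2 change over the root of the quasi-likelihood F. The 29 inputs shared 1 fit with sex as a covariate, and TRAP and input of the 7 late-induced animals another. Log2 CPM used a prior count of 2. Alternatives included DESeq2 1.42.0, limma voom 3.58.1, other scalings, no filter, females only and leaving out each library. Exon lengths came from GENCODE M21 and promoters from RefSeq, both GRCm38. Scripts were tested on simulated data.

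Named genes were the 10 members, the called gene with the largest rise and the largest fall in each companion list, and the genes most like each member; others were named after their values were seen. Some genes that this rule would name are not reported here. The members and lists were chosen with earlier results of these data known. Of 100 list genes, 99 were matched. Replicate numbers follow accession order except that TRAP and input of 1 animal share a number. Deviations of the 7 such pairs correlated at 0.308 to 0.47 (median -0.0856 between different animals), so animal was used as a block in an alternative. Replicates differed beyond counting noise (chi-square per degree of freedom 3.66 to 47.4). Group differences in a ranges-apart count used 14010 genes.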

Additional observations from a re-analysis of the deposited data

Results flagged for a closer look

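Dsp in TRAP replicate 7 was 163.08 CPM, far from the next highest pulldown at 102.96 for a group of 7. The values tested came from young inputs, old late inputs and TRAP, and old early inputs were not tested for outlying libraries. Of 33 values tested this Dsp value was the only one so marked, and chance marks about 1 in 20 groups. In that library the summed microglial CPM was 7740.9 and the summed endothelial CPM 142.1, both within the range of the other pulldowns. Its level of long genes minus other genes was the highest of the 7 pulldowns, at 1.099 against 0.999 for the next, and the part of this in the Dsp value was not tested.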

How the results depend on the processing

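No called member reversed under any alternative tried; 40 alternatives covered each age comparison and 24 the TRAP comparison. With each library left out in turn, genes called ranged from 3294 to 4011 in old early against young, 4352 to 5393 in old late against young, 0 to 164 in old late against old early, 17 to 32 between sexes, 8150 to 8720 in TRAP against input and 0 to 453 in the interaction. The extremes came without old early replicate 5 (164 genes; 76 without replicate 2 and 29 without replicate 10), without old late input replicate 2, 3 or 4 (0), without old late input replicate 2 (17 between sexes) and without old early replicate 6 (453). Members called ranged from 3 to 5, 6 to 6, 0 to 1, 0 to 0, 7 to 8 and 0 to 0. Females alone gave 1198, 2787 and 182 genes in the 3 group comparisons, against 3826, 5151 and 5, with 2 members called in old early against young and 1 in old late against old early. DESeq2 called 58 in old late against old early, 64 between sexes (main 26) and 13 in the interaction. The groups compared alone gave 0 in old late against old early, and early-induced inputs alone 12 between sexes. With the long-gene level as a covariate, added after seeing the data, calls were 1953, 1742 and 0. Without old early replicates 2 and 5, also added later, 899 genes and 2 members were called in old late against old early. For the dentate minus CA difference, old early minus young was -0.62 by the median of genes, -0.16 without Dsp and -0.14 without Prox1 and Dsp (-0.30 to -0.26 leaving out 1 library). Old late minus young was -0.63 by the median and -0.18 without both (-0.36 to -0.31), and old late minus old early ranged from -0.07 to -0.03. TRAP minus input was 1.60 by the median, 0.49 without Dsp, 0.95 without Calb1, 0.87 without Tdo2 and 0.42 without Prox1 and Dsp (0.75 to 0.80). The median takes the middle gene of each library, which was not the same gene throughout. These medians therefore do not measure the change of a set. The number of pairs called was 7, against 2 without the farthest libraries and 2, 0 and 2 within young, old early and old late inputs; these need not be the same pairs. The animal as a replicate block in TRAP against input gave 9330 calls and added Bok; no other member call changed. The cause of these changes was not tested. Depth limits Tdo2 most.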
